A study of Mus musculus with 12 samples.

Results

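Keratins and markers of the bile duct epithelium were followed through 12 mouse liver libraries. The set holds 8 genes, taken by symbol from the 22456 genes of the expression table: the keratins Krt7, Krt8, Krt18, Krt19, and Krt23, and the biliary markers Epcam, Sox9, and Spp1. Values are RPKM (reads scaled to a gene's length and to the library's mapped reads), and all 8 genes averaged 0.5 RPKM or more, the minimum that 11507 tested genes of the table passed. Keratins form intermediate filaments from pairs of a type I and a type II chain. Hepatocytes carry a network of Krt8 (type II) with Krt18 (type I), whereas cells that line the bile ducts add Krt7 and Krt19, and EpCAM, SOX9, and osteopontin, the product of Spp1, are the usual further marks of ducts and of the ductular reaction of injured liver. Keratin filaments anchor at desmosomes, protect hepatocytes from mechanical and toxic stress, and change in level in many forms of liver injury.

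The libraries came from the livers of male BALB/cByJ mice aged 2 to 8 months, with 3 mice of each genotype, Lpin1+/+ or Lpin1-/-, in each state, fasted or refed, and each mouse a separate library. Lpin1-/- mice carry the spontaneous fatty liver dystrophy (fld) allele, so lipin 1, a phosphatidic acid phosphatase and transcriptional coactivator, is missing from every tissue and from birth on, and the Lpin1+/+ mice were their littermates. Fasting lasted 16 hours, overnight and in single cages. Refed mice went through the same fast and then had chow for 5 hours, so the state of feeding and the hour of sampling cannot be told apart.

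Lpin1 stood at 0.726 to 21.96 RPKM in the Lpin1+/+ libraries and at most at 0.0597 RPKM in the Lpin1-/- libraries, with no overlap in either feeding state. Even so, Lpin1 did not pass the limma test used below (-2.19, adjusted p = 0.0562 in fasted liver, and -1.55, adjusted p = 0.231 in refed liver). A gene of low and variable level can thus differ without a pass. The 12 hepatocyte markers summed to 59540 to 95630 RPKM per library, and 8 markers of pancreatic acini to at most 2.03 RPKM, so the defining markers of liver were present. Relative depth differed by up to 1.34-fold between libraries. Replicate 1 of the fasted Lpin1-/- group stood apart for 4 of the 8 genes, and replicate 2 of the refed Lpin1+/+ group stood apart for Spp1. Values that moved by over 1.5 times without either library are given with and without it where they bear on a result.

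The 8 genes fell into levels far apart. Krt18 and Krt8 averaged 145 and 108 RPKM over the 12 libraries, above 97.0% and 96.1% of all genes of the table, and Spp1 averaged 69.1 RPKM. Krt18 exceeded Krt8 in 11 of 12 libraries, and Krt8 exceeded Spp1 in 11 of 12. The other 5 genes lay between 0.121 and 10.8 RPKM in every library, with means of 1.71 for Epcam, 1.38 for Sox9, 1.24 for Krt19, 1.05 for Krt23, and 0.654 for Krt7. Neighbours in this low order were not separated, since the range of each gene over the libraries covered the means of the others. The keratins of hepatocytes varied least, with a highest library 4.53-fold above the lowest for Krt18 and 4.61-fold for Krt8. Spp1 and Krt19 varied most, 27.2-fold and 26.2-fold.

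**Figure D1:**
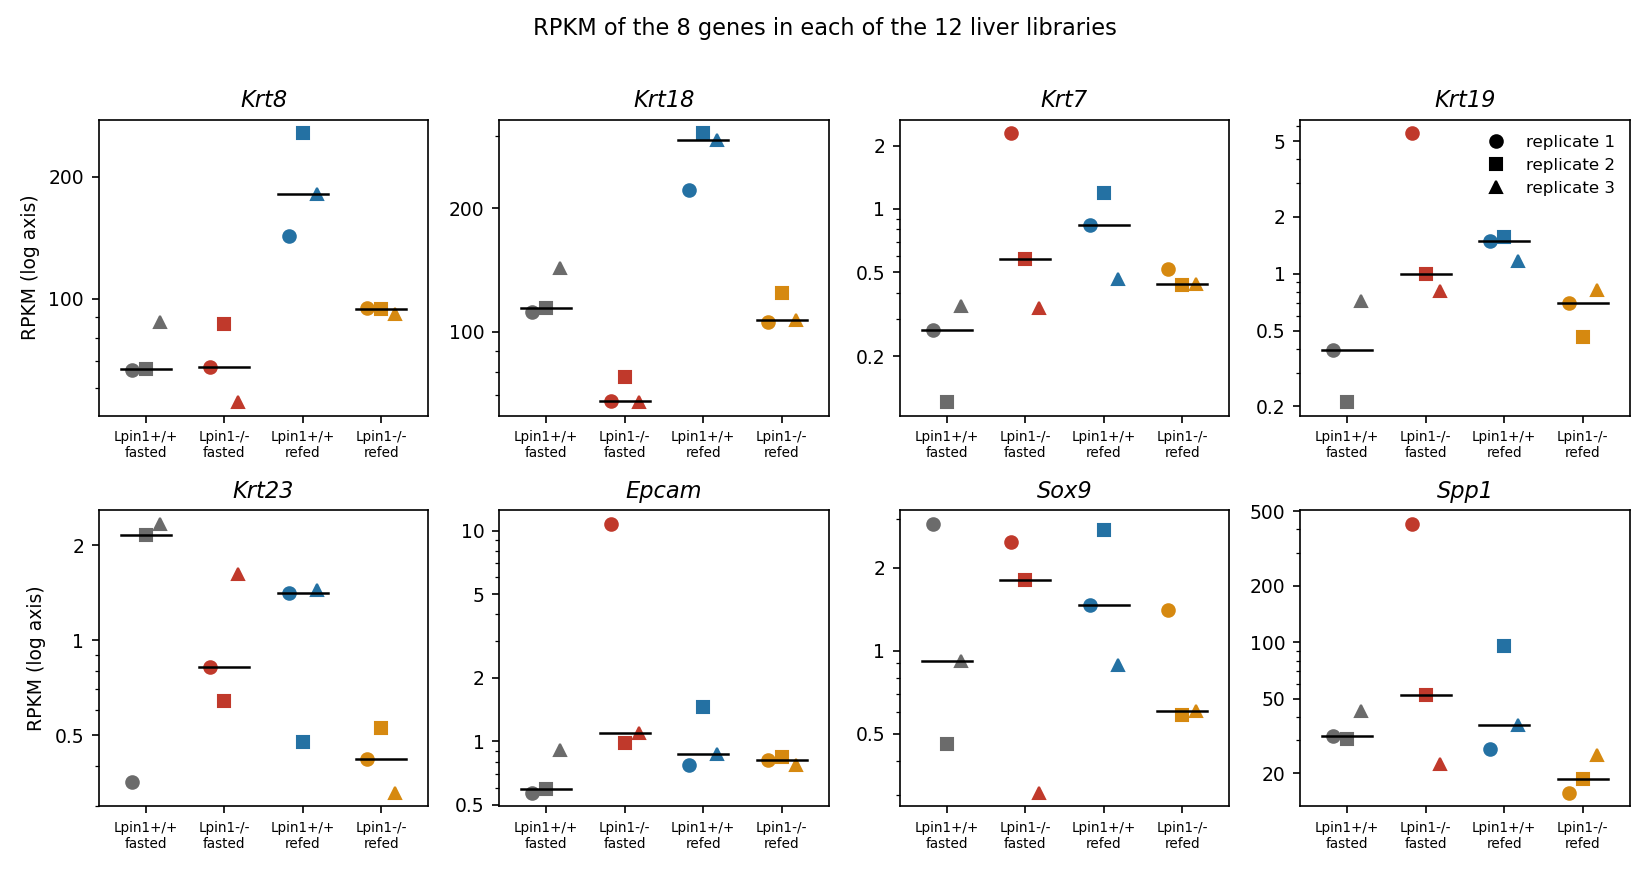
Each panel shows RPKM (log axis) of a gene in the 12 libraries by group, with a marker shape per replicate and a black line at the group median. Krt18 in fasted Lpin1-/- liver (67.4 to 77.4 RPKM) lies below every other library, and replicate 1 of that group is the highest point for Krt7, Krt19, Epcam, and Spp1.

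Between the groups, the hepatocyte keratins Krt8 and Krt18 passed the test and the duct genes did not. In fasted liver 1 of the 8 genes, Krt18, was lower in Lpin1-/- (limma, Benjamini-Hochberg adjusted p under 0.05), where 13.2% of all tested genes were lower and 18.8% passed in either direction. A share of 1 in 8 is thus near the background in fasted liver. In refed liver 2 genes, Krt8 and Krt18, were lower in Lpin1-/-, against 4.07% of all tested genes lower and 6.67% in either direction. Refeeding raised the same pair in Lpin1+/+, where 1.52% of tested genes rose and 1.72% passed in either direction. In Lpin1-/- it raised 1 gene, Krt18, where 17.8% rose and 20.7% passed, so a share of 1 in 8 is near the background there. Without regard to the test, the groups did not overlap for 3 of the 8 genes in fasted liver, with Krt19 and Epcam higher in Lpin1-/- (as 10.7% of tested genes) and Krt18 lower (as 22.2%). In refed liver 4 genes, Krt8, Krt18, Krt19, and Spp1, lay lower in Lpin1-/- without overlap (as 19.1%). With refeeding, 4 genes lay higher without overlap in Lpin1+/+, namely Krt7, Krt8, Krt18, and Krt19 (as 14.6%), whereas in Lpin1-/- Krt8 and Krt18 lay higher (as 37.5%) and Krt23 and Epcam lower (as 9.26%). The 4 comparisons share groups and are not independent of each other. The median log2 fold change of the 8 genes was 0.35 for Lpin1-/- over Lpin1+/+ in fasted liver and -0.53 in refed liver, beside -0.14 and -0.07 for all tested genes. Without replicate 1 of fasted Lpin1-/- the fasted median was -0.04, so its direction rested on that library. For refed over fasted liver it was 0.46 in Lpin1+/+ and -0.43 in Lpin1-/-, beside 0.19 and 0.25. It was 0.26 in Lpin1+/+ without replicate 2 of the refed group and -0.12 in Lpin1-/- without replicate 1 of the fasted group.

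**Figure D2:**
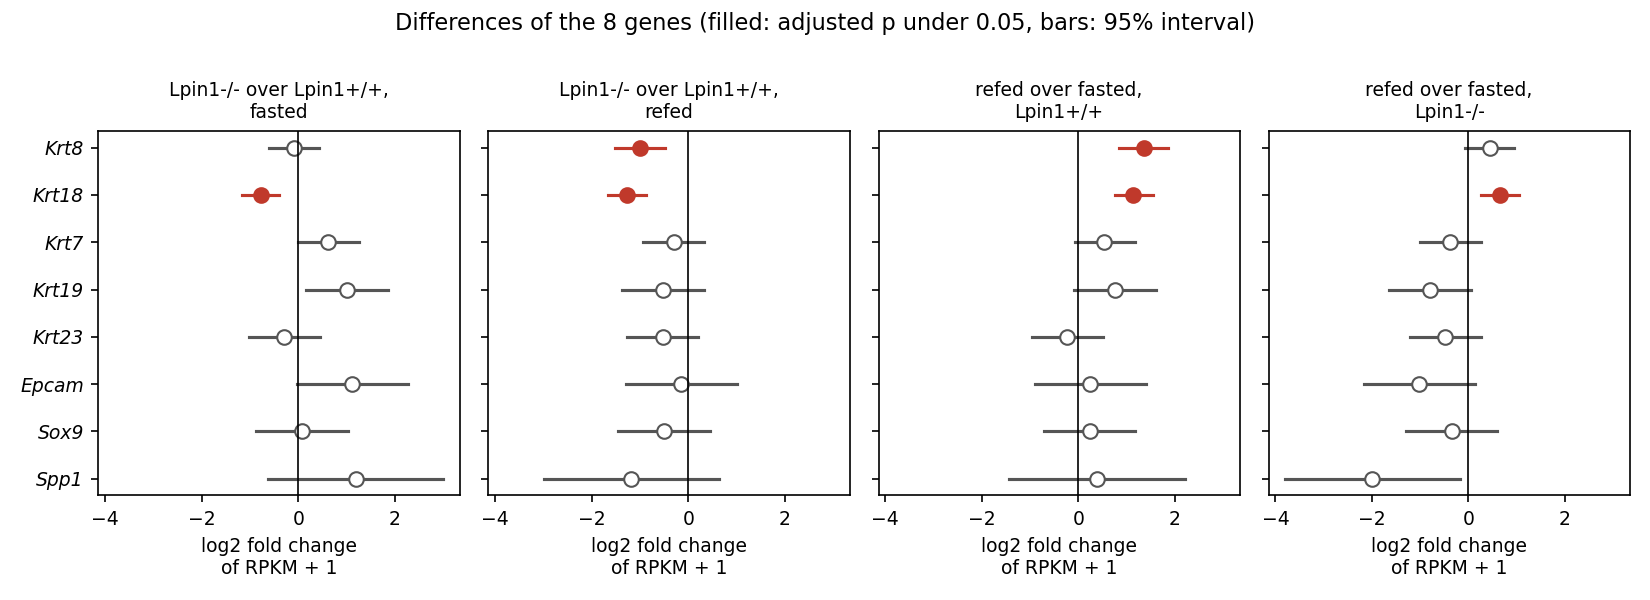
Each panel is a comparison of 3 libraries with 3, with the log2 fold change of RPKM + 1 on the x axis, its 95% interval as a bar, and filled points where the adjusted p of the limma fit was under 0.05. Only Krt8 and Krt18 have filled points, and the intervals of Spp1 are the widest, from -3.80 to -0.18 for refed over fasted Lpin1-/- liver.

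Krt8 and Krt18 lie close together on chromosome 15 of GRCm38, with Krt8 (ENSMUSG00000049382.10, 101996698 to 102004482, minus strand) separated by 23.7 kb from Krt18 (ENSMUSG00000023043.7, 102028180 to 102032027, plus strand). The RefSeq promoter windows (GRCm38.p6, 250 bases before and 50 after the annotated start) are shown because both genes passed the test in the same direction in 2 of the 4 comparisons. Capitals mark AGGTCA, the core motif bound by nuclear receptors, and in Krt8 also TATAAA, which was found on both strands in overlapping letters (TTTATAAA). The windows are chr15:102004293-102004592 on the minus strand and chr15:102027966-102028265 on the plus strand.
Krt8: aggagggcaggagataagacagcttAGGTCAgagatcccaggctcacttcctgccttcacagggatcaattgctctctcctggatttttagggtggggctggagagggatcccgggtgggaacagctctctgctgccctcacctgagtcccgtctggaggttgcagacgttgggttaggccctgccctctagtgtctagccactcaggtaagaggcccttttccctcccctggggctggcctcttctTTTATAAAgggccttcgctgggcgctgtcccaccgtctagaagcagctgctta
Krt18: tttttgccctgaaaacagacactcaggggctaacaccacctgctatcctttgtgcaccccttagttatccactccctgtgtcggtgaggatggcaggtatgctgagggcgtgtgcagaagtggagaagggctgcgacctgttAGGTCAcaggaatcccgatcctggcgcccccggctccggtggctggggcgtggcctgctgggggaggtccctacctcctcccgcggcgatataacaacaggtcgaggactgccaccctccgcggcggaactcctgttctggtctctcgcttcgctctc
Each window holds AGGTCA once, starting at base 26 in Krt8 and at base 143 in Krt18, counted from the 5′ end. Among 32851 RefSeq promoter windows of this length, searched on both strands, 16.3% hold AGGTCA and 13.6% hold TATAAA. Of the 6 members with a promoter in the RefSeq table, AGGTCA was found in 3 (Krt7, Krt8, and Krt18), TATAAA in 2 (Krt8 and Spp1), the GC box GGGCGG in 2 (Krt7 and Epcam; 35.7% of all windows), and the AP-1 motif TGANTCA in 0 (7.81% of all windows). Krt19 and Sox9 had no entry.

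Krt18, the type I chain of the hepatocyte network, was lower in Lpin1-/- liver in both feeding states and rose with refeeding in both genotypes. Its RPKM was 112, 114, and 143 in fasted Lpin1+/+, and 67.8, 77.4, and 67.4 in fasted Lpin1-/-. In refed liver it was 222, 305, and 294 in Lpin1+/+, and 106, 124, and 107 in Lpin1-/-. All Lpin1-/- libraries lay below all Lpin1+/+ libraries of the same state, and all refed libraries above all fasted libraries of the same genotype. The refed Lpin1-/- libraries reached about the level of fasted Lpin1+/+. Mean RPKM in Lpin1-/- was 0.577 of that in Lpin1+/+ in fasted liver and 0.411 in refed liver. On the log2(RPKM + 1) scale used for every test here, Krt18 fell by 0.78 in fasted Lpin1-/- liver (adjusted p = 0.0125) and by 1.27 in refed Lpin1-/- liver (adjusted p = 0.00321). Refeeding raised it by 1.14 in Lpin1+/+ (adjusted p = 0.0127) and by 0.66 in Lpin1-/- (adjusted p = 0.0252). The SE was 0.18 for each of these 4 values. In whole liver, fewer cells of a type and less RNA per cell cannot be told apart.

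The refed difference of Krt18 passed under all 19 alternatives (adjusted p 0.00283 to 0.0214). The fasted difference was lost when libraries were rescaled to a common median (-0.58, adjusted p = 0.0931), with the 6 fasted libraries alone (adjusted p = 0.0606), and without replicate 3 of fasted Lpin1+/+ (-0.67, adjusted p = 0.0633). After rescaling, the rise with refeeding was 0.92 in Lpin1+/+ (adjusted p = 0.0997) and 0.29 in Lpin1-/- (adjusted p = 0.384). The rise in Lpin1-/- was also lost without replicate 1 or 3 of the fasted or replicate 2 or 3 of the refed Lpin1-/- group (adjusted p 0.0607 to 0.103).

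Krt8, the type II partner of Krt18, responded to refeeding in Lpin1+/+ and differed between genotypes in refed liver. It stood at 66.5, 67.1, and 87.6 RPKM in fasted Lpin1+/+ and at 67.7, 86.7, and 55.5 RPKM in fasted Lpin1-/-, so these groups overlapped. Refed Lpin1+/+ libraries reached 143, 256, and 181 RPKM. Refed Lpin1-/- libraries held at 94.5, 94.1, and 91.7 RPKM, a range of 1.03-fold, below every refed Lpin1+/+ library and above every fasted library. Krt8 rose by 1.35 in refed over fasted Lpin1+/+ (SE 0.23, adjusted p = 0.0183), a mean RPKM 2.62-fold higher. In refed liver it fell by 1.00 in Lpin1-/- (SE 0.23, adjusted p = 0.0293), to 0.483 of the Lpin1+/+ mean. The fasted genotype difference was -0.09 (SE 0.23, 95% interval -0.60 to 0.43, adjusted p = 0.83), and refed over fasted Lpin1-/- gave 0.44 (SE 0.23, adjusted p = 0.202).

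The calls of Krt8 lay near the threshold. The refed genotype call passed in 11 of 19 alternatives. It was lost after rescaling (-0.94, adjusted p = 0.0522), without a filter on low genes (adjusted p = 0.0555), and when any of replicates 2 and 3 of refed Lpin1+/+ or replicates 1, 2, and 3 of refed Lpin1-/- was left out (adjusted p 0.0691 to 0.103). For refeeding in Lpin1+/+, leaving out replicate 2 of the fasted or replicate 3 of the refed group ended the calls of Krt8 (adjusted p = 0.0793 and 0.0606) and of Krt18 (adjusted p = 0.0635 and 0.0567). In the fit of the 6 Lpin1+/+ libraries alone, both had an adjusted p of 0.135, and after rescaling the rise of Krt8 was 1.13 (adjusted p = 0.0859). The difference between genotypes in the response to refeeding was -0.91 for Krt8 (SE 0.33, adjusted p = 0.185) and -0.49 for Krt18 (SE 0.25, adjusted p = 0.34), so a smaller response in Lpin1-/- liver was not shown by this test.

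Because Krt18 differed between genotypes in fasted liver and Krt8 did not pass there, the ratio of their RPKM was taken in each library, a measure chosen after the values were seen. In fasted Lpin1+/+ it was 0.594, 0.588, and 0.614, with a mean of 0.599 ± 0.0134 (SD, n = 3). In fasted Lpin1-/- it was 0.999, 1.12, and 0.824 (0.981 ± 0.149), all above the Lpin1+/+ values. Refed Lpin1+/+ gave 0.645, 0.839, and 0.616 (0.700 ± 0.122), and refed Lpin1-/- gave 0.893, 0.758, and 0.857 (0.836 ± 0.0702), with overlap. The excess of Krt8 over Krt18 in Lpin1-/- relative to Lpin1+/+ was 0.48 on the log2 scale over both states, 0.70 in fasted liver, and 0.27 in refed liver. No test is given, since the tested values of both genes led to this ratio. A ratio within a library is not moved by rescaling that library. It does not show which of the 2 messages changed.

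**Figure D3:**
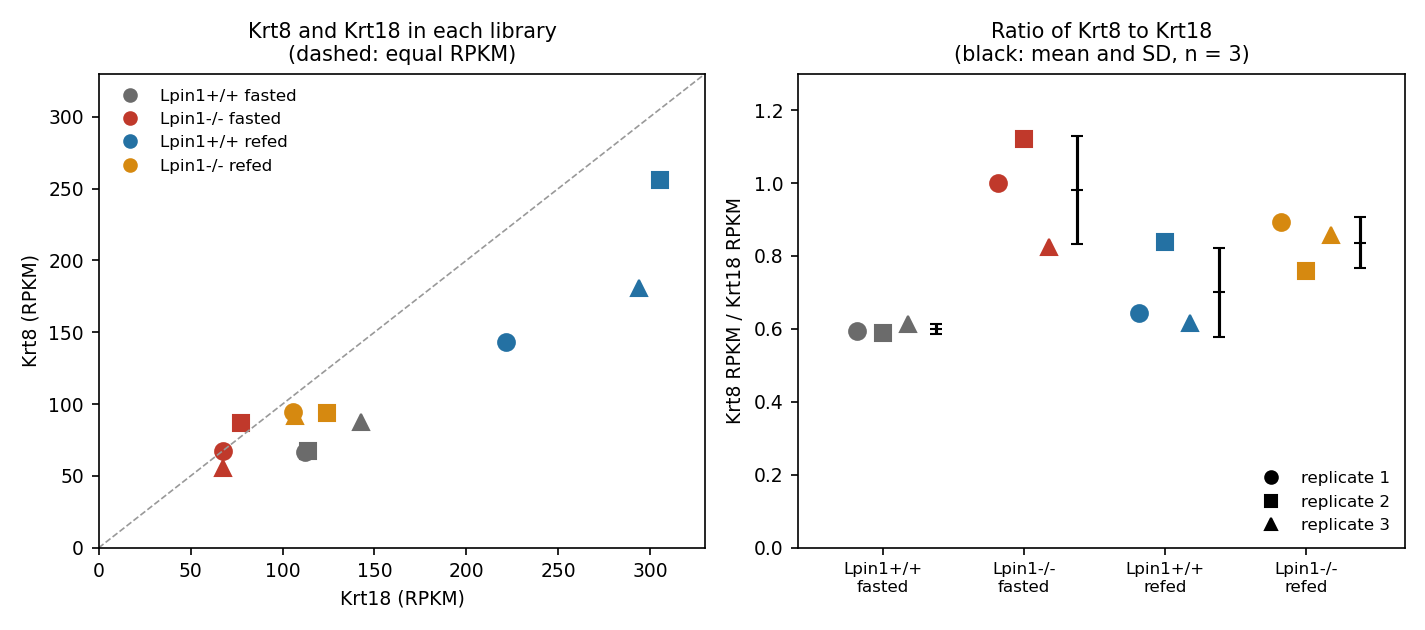
The left panel plots Krt8 against Krt18 RPKM in each library, with a dashed line at equal RPKM, and the right panel the ratio of Krt8 to Krt18 by group with mean and SD (n = 3). Fasted Lpin1+/+ libraries have nearly the same ratio (0.588 to 0.614), while fasted Lpin1-/- libraries lie at 0.824 to 1.12.

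Genes that work with the hepatocyte keratins were taken as lists. Counts for the lists here and below stand beside those of all tested genes. Of all tested genes, 18.8% passed between genotypes in fasted liver and 6.67% in refed liver. With refeeding, 1.72% passed in Lpin1+/+ and 20.7% in Lpin1-/-. Medians of all tested genes were, in the same order, -0.14, -0.07, 0.19, and 0.25. Of 10 tested keratin partners (desmosomal proteins and plakins), 1 was lower in fasted Lpin1-/- liver and 0 passed in refed liver by limma (0 at an unadjusted p under 0.05), with medians of -0.12 and -0.18. The gene that fell was Dsg2, a desmosomal cadherin, at 6.08 to 18.99 RPKM in fasted Lpin1+/+ and 2.403 to 3.452 RPKM in fasted Lpin1-/- (-1.54, SE 0.31, adjusted p = 0.0071). Refeeding raised Dsg2 (1.12, adjusted p = 0.0279) and desmoplakin, Dsp (0.86, adjusted p = 0.0469), in Lpin1-/-, and 0 of the 10 passed by limma in Lpin1+/+ (1 at an unadjusted p under 0.05). The call of Dsg2 in fasted liver held in 19 of 19 alternatives and that of Dsp in 4 of 18. Jup and Pkp2, with Dsg2 the most abundant of the list, gave 0.05 (adjusted p = 0.949) and -0.53 (adjusted p = 0.119) in fasted liver.

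Among 5 tested intermediate filament genes outside the keratins, the lamin gene Lmnb2 passed in 3 comparisons. Lmnb2 was lower in fasted Lpin1-/- (-0.65, SE 0.17, adjusted p = 0.0219) and rose with refeeding by 0.83 in Lpin1+/+ (adjusted p = 0.0331) and by 1.34 in Lpin1-/- (adjusted p = 0.000781). These calls held in 12, 4, and 18 of 18 alternatives. In refed liver its genotype groups overlapped (-0.13, adjusted p = 0.691). Lmna rose with refeeding in Lpin1-/- (0.84, adjusted p = 0.0207). Of the 46 other keratins of the table only Krt10 reached the test, with log2 fold changes of 0.00 to 0.11 in the 4 comparisons and adjusted p-values of 0.776 to 0.997. Summed, these 46 keratins came to 0.802 to 2.46 RPKM per library, so Krt8 and Krt18 made up nearly all keratin RPKM. Among 9 tested genes of the Mallory-Denk body, the keratin aggregate of injured hepatocytes, 1 passed in fasted liver, and 2 were lower in refed Lpin1-/- liver, the chaperone Cryab (-1.25, adjusted p = 0.0389) and Ubb (-0.68, adjusted p = 0.0444). The call of Cryab held in 8 of 19 alternatives and that of Ubb in 6. Sqstm1, which encodes p62, was at -0.10 and 0.36 in these comparisons (adjusted p = 0.84 and 0.492).

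Krt7 and Krt19 are the keratins that tell duct cells from hepatocytes, and both were scarce. Krt19 (chromosome 11, 100140810 to 100148665) stood at 0.395, 0.210, and 0.718 RPKM in fasted Lpin1+/+, and at 5.51, 1.00, and 0.813 RPKM in fasted Lpin1-/-. In refed liver it was 1.48, 1.55, and 1.17 RPKM in Lpin1+/+, and 0.703, 0.463, and 0.824 RPKM in Lpin1-/-. The Lpin1-/- values thus lay above all Lpin1+/+ values in fasted liver and below them all in refed liver, without a pass in either. The log2 fold changes were 1.01 (SE 0.39, adjusted p = 0.0929) and -0.53 (SE 0.39, adjusted p = 0.452), and their difference was -1.54 (SE 0.55, adjusted p = 0.178). Without replicate 1 of fasted Lpin1-/- the fasted value was 0.42 and the difference -0.95, and without replicate 3 of that group it passed (1.34, adjusted p = 0.0444).

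Krt7 (chromosome 15, 101411043 to 101430313) followed Krt19 at a lower RPKM, below it in 12 of 12 libraries. The annotated exons of Krt7 come to 7049 bases and those of Krt19 to 1855 bases. RPKM is scaled to a gene's length, so this order may depend on the gene model. Krt7 was 0.268, 0.121, and 0.347 RPKM in fasted Lpin1+/+, and 2.29, 0.578, and 0.338 RPKM in fasted Lpin1-/-. Refed Lpin1+/+ gave 0.843, 1.19, and 0.464 RPKM, and refed Lpin1-/- gave 0.521, 0.438, and 0.441 RPKM. Genotypes overlapped in both states, with a log2 fold change of 0.62 in fasted liver (adjusted p = 0.157) and of -0.30 in refed liver (adjusted p = 0.571), each with an SE of 0.29. The fasted value was 0.23 when replicate 1 of fasted Lpin1-/- was left out, and the refed value was -0.16 when replicate 2 of refed Lpin1+/+ was left out. In Lpin1+/+ all refed libraries lay above all fasted libraries for Krt7 (0.54, adjusted p = 0.43) and for Krt19 (0.75, adjusted p = 0.422), and neither passed.

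Krt23, a type I keratin known for its rise in stressed and fatty liver, overlapped between genotypes in both states. It was 0.355, 2.15, and 2.34 RPKM in fasted Lpin1+/+ and 0.823, 0.641, and 1.62 RPKM in fasted Lpin1-/-. Refed Lpin1+/+ gave 1.42, 0.476, and 1.45 RPKM, and refed Lpin1-/- gave 0.420, 0.526, and 0.330 RPKM, the lowest group. The differences between genotypes were -0.29 (adjusted p = 0.595) when fasted and -0.53 (adjusted p = 0.383) when refed, each with an SE of 0.34. Refed libraries lay below fasted ones in Lpin1-/- (-0.48, adjusted p = 0.324). Replicate 1 of fasted Lpin1-/-, high for 4 other genes, was not high for Krt23.

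Epcam encodes an adhesion protein of duct and progenitor cells. Outside a single library it stayed between 0.571 and 1.46 RPKM. Fasted Lpin1+/+ gave 0.571, 0.597, and 0.914 RPKM, and fasted Lpin1-/- gave 10.8, 0.982, and 1.09 RPKM. Refed Lpin1+/+ libraries were at 0.771, 1.46, and 0.867 RPKM, and refed Lpin1-/- at 0.820, 0.841, and 0.768 RPKM. The fasted Lpin1-/- libraries all exceeded the fasted Lpin1+/+ ones, with a log2 fold change of 1.12 (SE 0.53, adjusted p = 0.163) that became 0.27 without replicate 1 of fasted Lpin1-/-. In refed liver it was -0.15 (SE 0.53, 95% interval -1.30 to 1.00, adjusted p = 0.893), and -0.01 without replicate 2 of refed Lpin1+/+.

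Proteins that bind or cleave EpCAM were taken as a list. Of 10 tested, 5 passed in fasted liver (4 lower and 1 higher in Lpin1-/-) and 2 in refed liver (1 each way). Among all tested genes 18.8% and 6.67% passed. Medians of the list were -0.43 and -0.09, beside -0.14 and -0.07 for all tested genes. Cd9, a tetraspanin found in EpCAM complexes, rose from 35.8 to 51.9 RPKM in fasted Lpin1+/+ to 128 to 204 RPKM in fasted Lpin1-/- (1.87, SE 0.34, adjusted p = 0.00403), and in refed liver by 1.75 (SE 0.34, adjusted p = 0.0142). Cldn3, a claudin of tight junctions, fell by 1.45 (adjusted p = 0.00153) and by 0.82 (adjusted p = 0.0457) in the same comparisons, with an SE of 0.22 for both, and the refed call held in 5 of 19 alternatives. Cldn2 fell by 1.54 in fasted Lpin1-/- liver (SE 0.21, adjusted p = 0.000906) and rose by 1.60 with refeeding in Lpin1-/- (SE 0.21, adjusted p = 0.000844).

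Sox9, a transcription factor of duct cells and of hepatocytes near the portal tract, varied within groups about as much as between them. Its RPKM was 2.89, 0.458, and 0.919 in fasted Lpin1+/+, and 2.48, 1.80, and 0.306 in fasted Lpin1-/-. In refed liver it was 1.46, 2.74, and 0.891 in Lpin1+/+, and 1.40, 0.587, and 0.604 in Lpin1-/-. All groups overlapped. The genotype difference was 0.08 in fasted liver (95% interval -0.87 to 1.02, adjusted p = 0.923) and -0.50 in refed liver (95% interval -1.45 to 0.44, adjusted p = 0.526). The fasted value was -0.21 without replicate 1 of fasted Lpin1-/-, and the refed value was -0.24 without replicate 2 of refed Lpin1+/+. The Notch and YAP pathways act on Sox9, and the list taken for them also held Onecut1 and Onecut2. Of its 10 tested genes, 2 passed in fasted liver and 1 in refed liver, against 18.8% and 6.67% of all tested genes. Medians of the list were -0.33 and 0.06, beside -0.14 and -0.07 for all tested genes. Tead1, the partner of YAP on DNA, was higher in fasted Lpin1-/- liver (1.17, SE 0.28, adjusted p = 0.0146). Cyr61, a YAP target, was lower in refed Lpin1-/- liver (-1.74, SE 0.34, adjusted p = 0.0141) and in fasted Lpin1-/- liver (-1.08, SE 0.34, adjusted p = 0.0468), calls that held in 15 and 5 of 18 alternatives. In fasted liver the genotype groups of Cyr61 overlapped. Ctgf, also in this list, went the other way without a pass. It was at 1.25 in refed liver (SE 0.53, adjusted p = 0.189) and at 0.56 in fasted liver (SE 0.53, adjusted p = 0.504). Refeeding in Lpin1-/- raised 3 of the 10, where 20.7% of all tested genes passed. They were Yap1 (1.38, SE 0.33, adjusted p = 0.0145) and the liver and duct factors Onecut1 (2.35, SE 0.63, adjusted p = 0.0234) and Onecut2 (1.49, SE 0.35, adjusted p = 0.0137). For Yap1, refeeding in Lpin1+/+ gave 0.30 (adjusted p = 0.727), and the difference between genotypes was 1.08 (adjusted p = 0.257). For Onecut1 and Onecut2, refeeding in Lpin1+/+ gave 2.62 (adjusted p = 0.0681) and 0.69 (adjusted p = 0.413), and the differences between genotypes were -0.27 and 0.79 (adjusted p = 0.883 and 0.424). Yap1 was at -0.96 in fasted liver (adjusted p = 0.0665), and Hes1, the Notch target of highest level, at 0.63 (adjusted p = 0.268).

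Spp1 encodes osteopontin, a secreted ligand of integrins and CD44 made by duct cells and macrophages. It had the widest spread of the set. It was 31.5, 30.7, and 42.9 RPKM in fasted Lpin1+/+, and 430.4, 52.6, and 22.3 RPKM in fasted Lpin1-/-. Refed Lpin1+/+ gave 27.1, 96.1, and 36.0 RPKM, and refed Lpin1-/- gave 15.8, 18.7, and 25.1 RPKM, all below refed Lpin1+/+. No comparison passed. The fasted genotype difference was 1.19 (SE 0.83, adjusted p = 0.347), and -0.01 without replicate 1 of fasted Lpin1-/-. In refed liver it was -1.18 (SE 0.83, adjusted p = 0.431), and -0.65 without replicate 2 of refed Lpin1+/+. Refed over fasted Lpin1-/- gave -1.99 (SE 0.83, adjusted p = 0.108), which was -0.79 without replicate 1 of the fasted group and passed without its replicate 3 (-2.89, adjusted p = 0.0242). In refed over fasted Lpin1-/- liver all 10 Kupffer cell markers also had negative log2 fold changes, with a median of -1.58 beside 0.25 for all tested genes. Only 1 passed, Clec4f (-1.28, SE 0.34, adjusted p = 0.0235, a call held in 14 of 19 alternatives). The sum of these markers was likewise highest in replicate 1 of the fasted group, at 999.7 RPKM against 507.8 and 367.4 RPKM. Their median is not given without that library. Of 7 tested osteopontin receptors and relatives, 0 passed in any comparison by limma, with 1 at an unadjusted p under 0.05 in fasted liver, 1 in refed liver, and 1 for refeeding in Lpin1-/-. Itgb1, the integrin chain of highest level, differed by -0.05 and 0.12 between genotypes (adjusted p = 0.88 and 0.755), and Itgb5 by -0.83 and -1.02 (adjusted p = 0.0655 and 0.0577).

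Replicate 1 of fasted Lpin1-/- was the highest of the 12 libraries for Krt7, Krt19, Epcam, and Spp1, while it was the highest for 9.44% of all tested genes. It exceeded the next library of its group 9.89-fold for Epcam, 8.18-fold for Spp1, 5.51-fold for Krt19, and 3.97-fold for Krt7. On the log2(RPKM + 1) scale, a larger gap was seen in 0.156% of tested genes for Spp1, in 0.348% for Epcam, in 0.973% for Krt19, and in 2.84% for Krt7. Krt8 and Krt18 were not raised there, at 0.781 and 0.876 of the highest other library of the group, and Sox9 was 1.38-fold above it. Krt7, Krt19, Epcam, and Spp1 were thus high together in a single mouse.

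**Figure D4:**
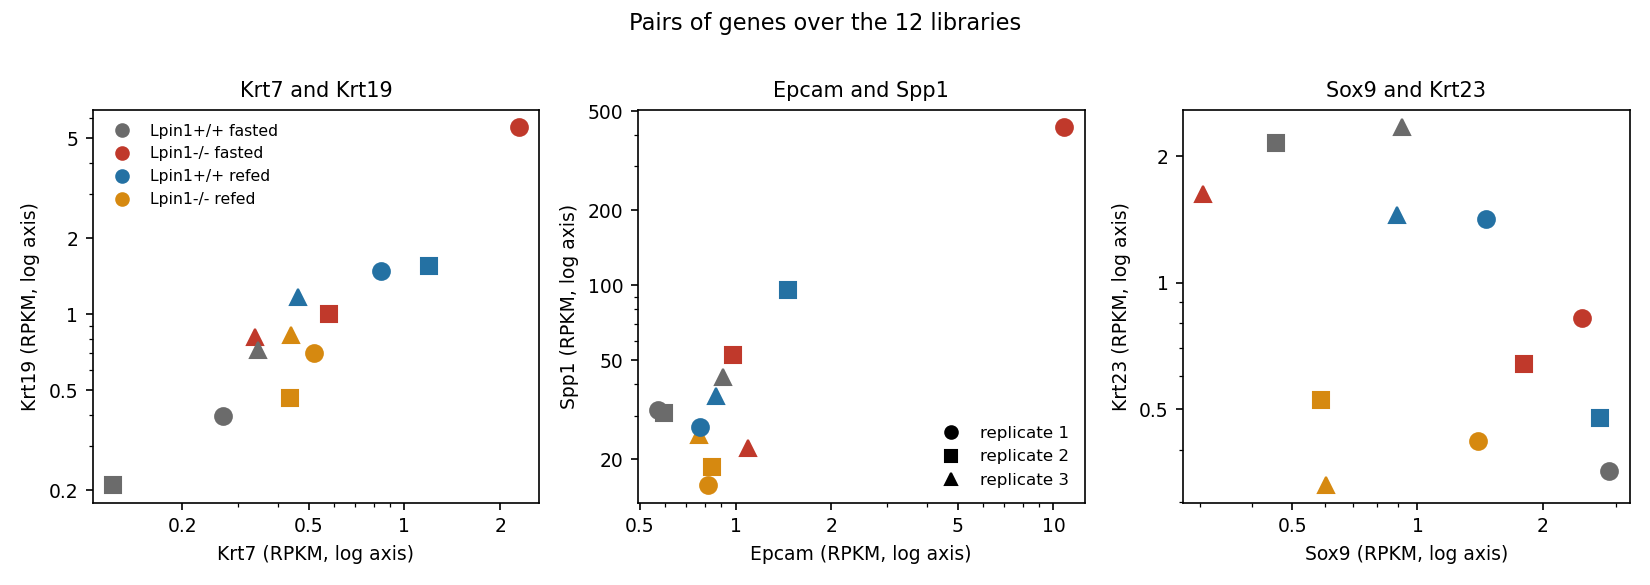
Each panel plots RPKM of a gene against another in the 12 libraries (log axes), with colours for groups and shapes for replicates. Krt7 and Krt19 lie along a line over all groups, and Epcam and Spp1 share the high value of replicate 1 of fasted Lpin1-/- (10.8 and 430.4 RPKM). Sox9 and Krt23 have a weak negative correlation over the 12 libraries (r = -0.49 on the log2(RPKM + 1) scale, Spearman rho -0.43).

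The same library was the highest for 12 of 22 other biliary markers. Matrilysin (Mmp7), which duct cells make when injured, was at 225 RPKM there and at 6.88 and 1.71 RPKM in the other libraries of the group, against 0.263 to 1.07 RPKM in fasted Lpin1+/+. Tspan8 was at 28.9 RPKM there and at 0.776 to 1.96 RPKM in the other 11 libraries. Cldn7, Ehf, and Anxa13 reached 5.60, 3.66, and 4.01 RPKM there. Aqp1, a water channel that duct cells express, was at 18.6 RPKM there and at 5.95 to 39.0 RPKM in the other libraries, so the markers did not all go the same way.

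**Figure D5:**
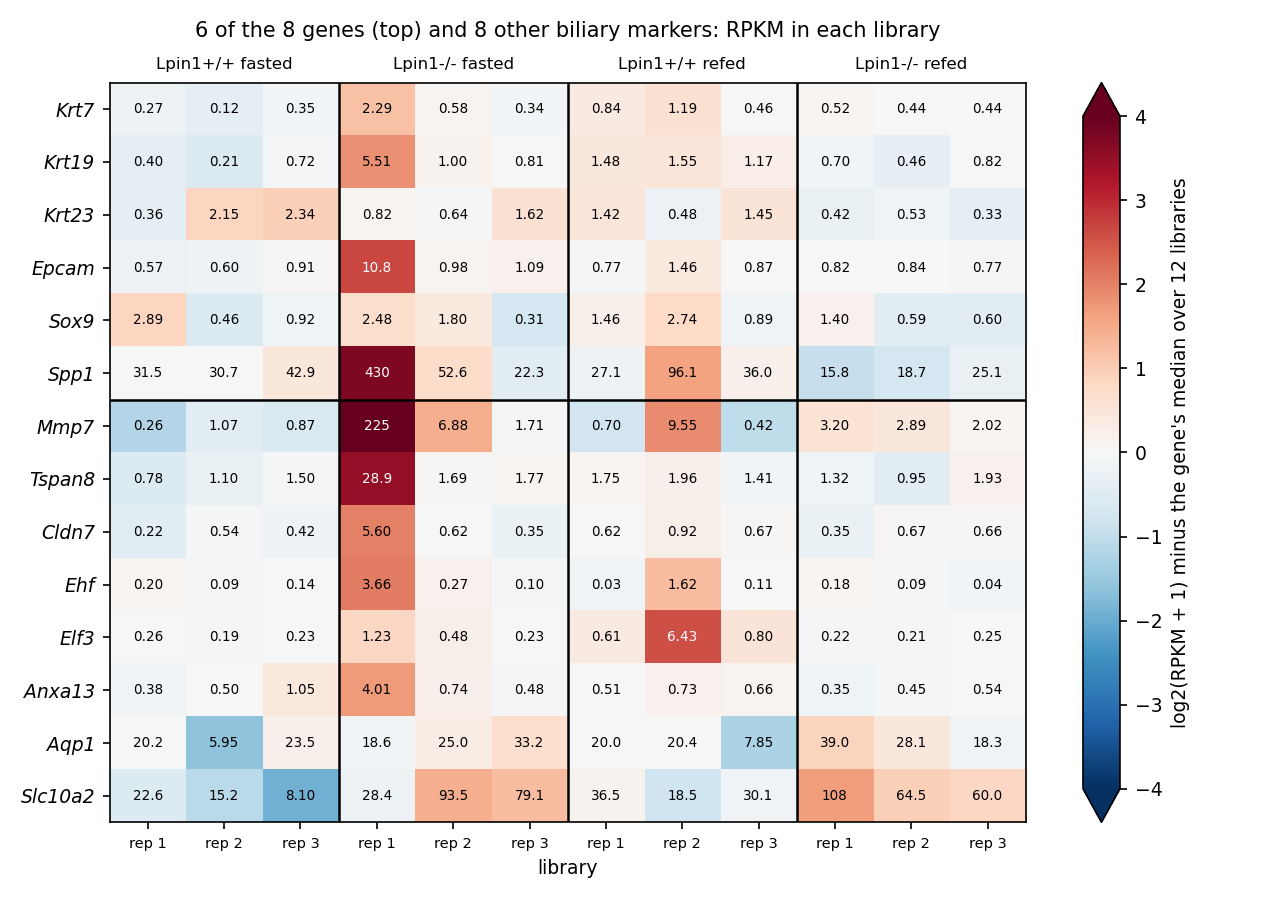
Cells hold RPKM of 6 members (top) and of 8 other biliary markers, chosen for display after their values were seen, in each library, and colours give log2(RPKM + 1) minus the gene's median, cut at 4 in both directions. The column of replicate 1 of fasted Lpin1-/- is high from Krt7 to Anxa13 except for Krt23, while Slc10a2 is high in the other libraries of Lpin1-/-.

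Other cell types were measured in the same 2 libraries. Replicate 1 of fasted Lpin1-/- and replicate 2 of refed Lpin1+/+ had the highest and the next highest Spp1 of the 12 and also the highest sums of 10 Kupffer cell markers, at 999.7 and 930.3 RPKM against 108.6 to 507.8 RPKM elsewhere. In replicate 2 of refed Lpin1+/+, Mmp7 was at 9.55 RPKM and the epithelial factor Elf3 at 6.43 RPKM, whereas the sum of hepatocyte markers was the lowest of all, 59540 RPKM. Lipid-associated macrophage markers summed to 354.3 and 356.5 RPKM, against at most 284.6 RPKM elsewhere. Stellate cell markers summed to 388.7 and 272.2 RPKM and endothelial markers to 56.8 and 61.0 RPKM in these 2 libraries, within the range of the others. Mesothelial markers were at 2.29 and 7.84 RPKM, the latter the highest of the 12. Pancreatic acinar markers summed to 2.03 RPKM in replicate 1 of fasted Lpin1-/- and to at most 0.265 RPKM elsewhere. Between genotypes in fasted liver, 0 of 10 Kupffer cell and 0 of 6 lipid-associated macrophage markers passed by limma (0 and 1 at an unadjusted p under 0.05), while 1 of 12 stellate cell markers (Col1a2) and 2 of 8 endothelial markers (Vwf and Lyve1) were higher in Lpin1-/-. In refed liver 0 genes of these 4 lists passed by limma, with 0, 0, 4, and 2 genes at an unadjusted p under 0.05. The part of macrophages, or of other cells, in the values of Spp1 was not tested.

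Over all 22 other biliary markers, summed RPKM was 34.6 to 75.7 in fasted Lpin1+/+, 128 to 337 in fasted Lpin1-/-, 61.7 to 82.1 in refed Lpin1+/+, and 100.4 to 172 in refed Lpin1-/-. In replicate 1 of fasted Lpin1-/- most of the sum was Mmp7, and in the other Lpin1-/- libraries it was Slc10a2, the apical sodium bile acid transporter of duct cells, which in this list had the highest mean. Slc10a2 was higher in fasted Lpin1-/- liver (8.10 to 22.6 RPKM in Lpin1+/+ and 28.4 to 93.5 RPKM in Lpin1-/-), by 2.0 on the log2 scale (SE 0.47, adjusted p = 0.0135). In refed liver the difference was 1.42 (SE 0.47, adjusted p = 0.096). Its lowest fasted Lpin1-/- value was that of replicate 1, the library with the highest Krt7, Krt19, Epcam, and Spp1. Of the 14 biliary markers tested, 2 passed in fasted liver, Slc10a2 among them, and 0 passed by limma in refed liver (2 at an unadjusted p under 0.05). Their medians were 0.51 and -0.16, beside -0.14 and -0.07 for all tested genes. Markers entered the test by their mean over all 12 libraries, so a marker high in a single library could pass the filter through it. Ehf, at 3.66 RPKM in replicate 1 of fasted Lpin1-/- and at most 1.62 RPKM elsewhere, was such a marker. The fasted median includes replicate 1 of fasted Lpin1-/-, the highest library for 12 of the 22 markers. It is not given without that library, so a general rise of duct markers in fasted Lpin1-/- liver was not shown. Of the 22, 3 were listed at 0 in some library, Cldn4 and Sctr among them.

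No member passed the test of a difference between genotypes in the response to refeeding (0 of 8 by limma, with 3 at an unadjusted p under 0.05, where 1.28% of tested genes passed). The 3 were Krt19, Krt8, and Krt7 (-0.92, adjusted p = 0.259). All 8 values were negative, from -0.25 for Krt23 to -2.38 for Spp1, with a median of -0.92 beside 0.09 for all tested genes. Without replicate 1 of fasted Lpin1-/- the median was -0.52, the value of Krt7 -0.53, and that of Spp1 -1.17.

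Across the 12 libraries, which carry the group differences and any difference in depth with them, Krt8 and Krt18 correlated at r = 0.91 (Spearman rho 0.73), and at 0.81 for deviations from group means. Krt7 and Krt19 correlated at r = 0.96 (rho 0.87), and at 0.87 without replicate 1 of fasted Lpin1-/-. For Epcam and Spp1 r was 0.89, and 0.57 without that library. Sox9 and Krt23 had a weak negative correlation over the libraries (r = -0.49, rho -0.43), and one of -0.85 for deviations from group means. Krt8 and Krt19, a hepatocyte and a duct keratin, had r = 0.17, and 0.77 without that library.

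Of all tested genes, those with the highest Pearson correlation to each member over the 12 libraries were taken as genes of like pattern. For Krt18 these were Alg3 (r = 0.98), Fez2 (0.975), and Hn1l (0.968), and for Krt8 they were Rpn1 (0.955), Clptm1l (0.946), and Ssr1 (0.941). The closest gene to Krt19 was Krt7 and the closest to Krt7 was Krt19 (r = 0.956 both ways). Epcam was closest to Timp4 (0.986), Tspan8 (0.984), and Spink1 (0.969), values that were 0.688, 0.67, and 0.794 without replicate 1 of fasted Lpin1-/-. Spp1 was closest to Btc (0.964, and 0.874 without that library), Ddit4l (0.956), and Sftpd (0.955). Krt23 was closest to Cyp2d10 (0.871), Rdh7 (0.866), and Mogat1 (0.857), and Sox9 to Rcan3 (0.906), Sesn3 (0.877), and Emp2 (0.873).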

How the data were processed

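RNA-Seq of whole liver from 12 mice (3 per group, by the labels of each library) was analyzed as deposited. The authors sequenced paired reads of 69 bases from stranded libraries, used HISAT2 (2.0.5) for alignment to GRCm38 and htseq-count (HTSeq 0.6.0) for gene counts, and deposited RPKM for 22456 genes. The strand setting of the counting is not given in the sources used here, so reads from 3 members and the annotated genes that overlap them (Gm671 for Krt7, Gm36026 for Krt8, both on the opposite strand, and Gm42793 for Spp1) cannot be told apart, and reads of Krt8 pseudogenes may be shared. Absolute depth was not used. Ratios of low RPKM values gave relative depths, with 21.8% to 27.2% of them at equal reads, and the spread between mice, not depth, set the errors.

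Tests used log2(RPKM + 1) of 11507 genes whose mean reached 0.5 RPKM. All 12 libraries entered 1 linear model with a term per group in limma 3.58.1 (R 4.3.3), with moderated variances that follow the mean level, and 4 contrasts and their interaction were taken from it, with Benjamini-Hochberg adjustment over all tested genes and a threshold of 0.05. Fold changes on this scale understate those of genes near 1 RPKM. The fit was tested on simulated data. The members and gene lists were chosen with earlier results of these data known. Named genes are the 8 members, Lpin1, the 3 genes of highest mean and up to 2 of each direction with the largest non-overlapping change per list and contrast, and the 3 genes most correlated with each member. Some genes that the rule takes are not reported here. Genes outside this rule (Cldn7, Ehf, Anxa13, Elf3, Tspan8, and Ctgf) were named after their values were seen. Alternatives were 0.1 as the pseudocount, rescaled libraries, a replicate block, a fit of the compared libraries alone, a filter at 5 RPKM or none, and leaving out libraries 1 at a time. Leaving out both libraries of high Spp1 and the ratio of Krt8 to Krt18 were added after seeing the data. Positions are from GENCODE M21 (GRCm38) and promoters from RefSeq (GRCm38.p6). Tables of skipped exon events, whose lists of counts are not tied to a group by name and which hold the authors' p-values, and a table of enriched terms were not used. Python 3.11.15, numpy 2.4.6, pandas 2.3.3, scipy 1.17.1, and matplotlib 3.10.9 were used.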

Additional observations from a re-analysis of the deposited data

Results flagged for a closer look

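Krt19 differed in direction between feeding states. Its 3 Lpin1-/- libraries all lay above the 3 Lpin1+/+ libraries in fasted liver and all below them in refed liver, and the difference between the 2 genotype effects was -1.54 on the log2(RPKM + 1) scale (limma, adjusted p = 0.178 over all tested genes), so it failed the correction. Over 17 alternatives this difference was -2.83 to -0.91, with adjusted p-values of 0.0965 to 0.329. Part of it rests on replicate 1 of fasted Lpin1-/-, at 5.51 RPKM beside 1.00 and 0.813 RPKM in its group.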

How the results depend on the processing

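Of 94 counts of members past the threshold under the alternatives, 73 stayed within 1.5 times the main count. Rescaled libraries gave 0, 1, 0, 0, and 0 members for the genotype difference in fasted and refed liver, refeeding in Lpin1+/+ and in Lpin1-/-, and the interaction, in place of 1, 2, 2, 1, and 0. Rescaling moved the median of all tested genes from -0.143 to 0.0144 in fasted liver and from 0.185 and 0.25 to 0.0161 and -0.0284 with refeeding, and the higher share of calls from 648 of 2168 to 1059 of 2258, 299 of 767 to 414 of 828, 175 of 198 to 48 of 76, and 2046 of 2382 to 1024 of 1730. The libraries compared alone gave 0 in fasted liver and 0 for refeeding in Lpin1+/+, and no filter gave 1 in refed liver. With a library left out, counts ranged from 0 to 2 (fasted), 1 to 2 (refed), 0 to 2 (refeeding, Lpin1+/+), and 0 to 1 (refeeding, Lpin1-/-). Without both libraries of high Spp1, counts were 1 in refed liver and 0 for refeeding in Lpin1-/-. The replicate numbers do not pair the mice (correlations of -0.474 to 0.743, 8 of 18 pairs above 0.1, 4 of 12 libraries closest to their own number), and the replicate block left 1, 2, 2, 1, and 0. Directions turned for Krt8 in fasted liver, to 0.12 after rescaling and up to 0.07 with a library left out (from -0.25). Leaving out libraries turned Sox9 in fasted liver (-0.23 to 0.50, and -0.21 without both of high Spp1) and with refeeding in Lpin1+/+ (-0.08 to 0.63, and -0.04), Spp1 in fasted liver (-0.01 to 2.09, and -0.01) and with refeeding in Lpin1+/+ (-0.14 to 0.75, and -0.14), Krt23 with refeeding in Lpin1+/+ (-0.66 to 0.00, and 0.00) and in the interaction (-0.49 to 0.17), Krt7 with refeeding in Lpin1-/- (-0.64 to 0.01), and Lpin1 with refeeding in Lpin1+/+ (-1.42 to 0.45) and in the interaction (-0.50 to 1.37). Over single members and Lpin1, 755 values kept direction and side of the threshold, 25 lost the call, and 10 gained one. Of 41 calls of named genes of the lists, 27 were lost in at least 1 alternative and 0 reversed. For all of these the cause was not tested. The tests of exon events were not run.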
